A study of Macaca mulatta with 4 samples.

Results

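The regions described here are wide stretches of the rhesus macaque autosomes with the histone mark H3K27me3 over most of their length in gynogenetic embryos. They also held some of the mark in androgenetic embryos. They numbered 256 of 555 wide GG domains (46.1%), with a summed width of 22.5 Mb, or 0.843% of the length spanned on the 20 autosomes. In each GG library, intervals at most 1500 bp apart were joined and joined stretches of at least 50 kb were kept. The stretch common to both GG libraries had again to reach 50 kb. A member is such a domain with at least 450 covered bases in AG replicate 1 and also in AG replicate 2. GG width and AG coverage therefore chose the members, and both are given below as descriptions with no test.

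H3K27me3 was profiled in macaque (Macaca mulatta) embryos at the morula stage by CUT&RUN, as the series title and the extraction protocol name it (the sample titles say ChIP-seq), with 2 libraries from AG embryos, whose nuclear genome is paternal only (androgenetic), and 2 from GG embryos, whose nuclear genome is maternal only (gynogenetic). All 4 libraries used an anti-H3K27me3 antibody and embryos freed of the zona pellucida; embryos with genomes of both parents were not analysed here. The labels state neither how many embryos made a library nor whether replicates were separate pools, so the spread between replicates may be technical. With 2 libraries against 2, an exact two-sided permutation test cannot go below p = 0.333, so no p is given.

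H3K27me3 is placed by Polycomb repressive complex 2 (PRC2) and is associated with silenced chromatin. In differentiated cells it is concentrated at the CpG-rich promoters of silenced developmental regulators, whereas mouse oocytes carry it in broad domains far from such promoters. Part of that oocyte mark persists on the maternal genome after fertilization in mouse and can silence the maternal allele, a form of imprinting that does not need DNA methylation. An embryo with only a paternal or only a maternal genome lets the mark on each be read apart.

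A covered base is a base inside a deposited interval, which is a stretch under tags that lay on islands called enriched by the submitters. Intervals numbered 42512 to 44337 in the AG libraries and 287230 to 362999 in the GG libraries. Islands were called with a window of 200 bp and a gap of 200 bp in AG but a window of 300 bp and a gap of 1200 bp in GG, so calling and group cannot be told apart. The files hold no tag counts, so depth is unknown, and a base outside an interval is not shown to lack the mark. On the build of the files, rheMac8, no gene annotation or sequence was used here, so the domains are named by their positions.

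In GG the members were covered over most of their length, in intervals with gaps between them. The covered percentage of a member ran from 81.1% through a median of 91.8% to 99.0% in GG replicate 1, and from 83.7% through 94.5% to 99.7% in GG replicate 2. GG replicate 2 was the higher of the pair in 239 of 256 members, by a median of 2.29 percentage points. Over the whole autosomes the same libraries covered 7.80% and 7.23%, where replicate 1 was the higher. Members were 50.2 to 323.9 kb wide with a median of 73.8 kb.

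In AG only a small part of most of these domains was covered. AG replicate 1 covered from 0.926% through a median of 5.36% to 60.3% of a member, and AG replicate 2 from 0.590% through 6.05% to 62.3%. Over all members together the values were 7.91% and 8.69%, against 0.497% and 0.635% of the autosomes. Coverage in AG was under 10% in both libraries in 177 members, and at or above 25% in both in 14. The 26 most covered members of a library held 39.7% of the member bases of AG replicate 1 and 40.6% of those of AG replicate 2. The members took 13.4% of all autosomal AG bases in replicate 1 and 11.5% in replicate 2, while all 555 wide domains together took 14.2% and 12.6%. Each of these AG values is raised by the rule that chose the members.

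As a background, the AG rule was applied to all 35637 autosomal windows of 75 kb, a width near the median member. In these, 7.90% held at least 450 bases in each AG library. Wide GG domains held them in 46.1%.

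Few domains lay near the AG minimum. The member with the fewest bases in its lower AG library, chromosome 15 from 3432656 to 3492332, held 2891 in AG replicate 1 and 566 in AG replicate 2. The next members inside the threshold were chromosome 1 from 120897063 to 120964579, with 1149 and 607 bases, and chromosome 20 from 29168694 to 29247921, with 1290 and 696. Just outside lay chromosome 15 from 105843088 to 105906723, with 124 bases in AG replicate 1 and 1133 in AG replicate 2. It was the single domain outside the members with bases in both AG libraries. The other 298 domains had none in at least 1 AG library, and the first of them by position lay on chromosome 1 from 3717290 to 3780701 (0 and 1306 bases) and from 7202438 to 7294860 (2159 and 0). Of the 299 domains outside the members, 42 held bases of AG replicate 1 alone, 100 held bases of AG replicate 2 alone and 156 held none.

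**Figure D1:**
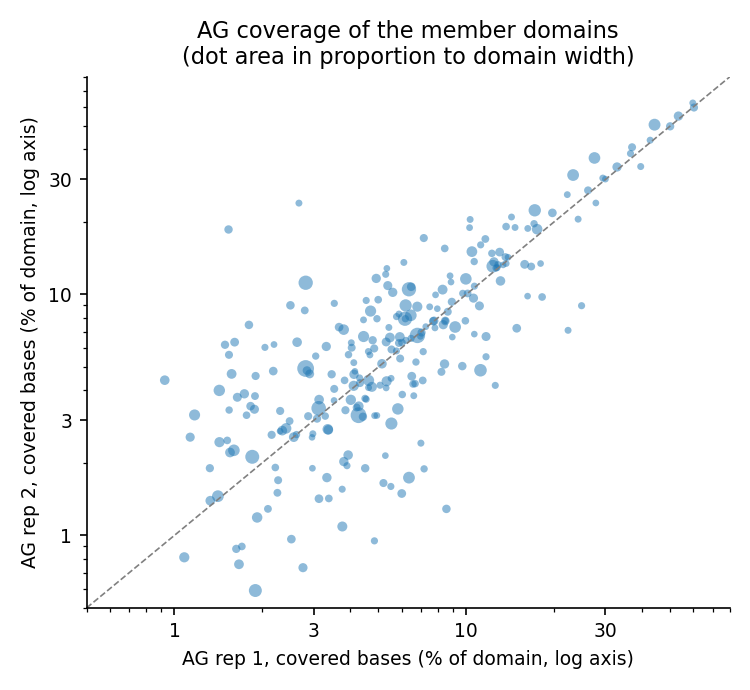
Covered percentage of each of the 256 members in AG replicate 1 (horizontal) and AG replicate 2 (vertical), both on log axes; a dot is a member, its area is in proportion to the width, and the dashed line marks equal values. The most covered members lie along the line at 30% to 62.3%, and members under 10% scatter to both sides of it.

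The most AG-covered members were alike in both AG libraries. The highest mean AG coverage was on chromosome 15 from 5087850 to 5142620 (54.8 kb), with 59.8% covered in AG replicate 1, 62.3% in AG replicate 2, 87.1% in GG replicate 1 and 86.1% in GG replicate 2. Chromosome 12 from 63086808 to 63162699, 75.9 kb wide, had 60.3% and 59.7% of its bases covered in AG replicates 1 and 2, while the GG replicates covered 93.7% and 95.0%. These 2 domains were the only members above 55.0% in both AG libraries.

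Chromosome 3 from 80939693 to 81039099, 99.4 kb wide, had 53.3% and 55.0% covered in AG, while GG covered 97.1% and 97.7%. Chromosome 2 from 154330160 to 154409430, 79.3 kb wide, had 50.0% and 49.9% covered in AG, while GG covered 95.9% and 97.9%. Chromosome 11 from 52616412 to 52779647, 163.2 kb wide, had 44.2% and 50.6% covered in AG, while GG covered 96.1% and 96.8%. In these 5 domains the AG libraries lay 0.122 to 6.46 percentage points apart, and each AG library lay below both GG libraries. The bases under both AG libraries made up 0.601 to 0.708 of the bases under either, so most covered bases of either library were common to both. The longest patches of the replicates overlapped on chromosome 3 (23748 and 25008 bp) and on chromosome 12 (28564 and 27836 bp). In the domains on chromosomes 15, 2 and 11 the longest patch of one replicate lay elsewhere than that of the other.

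**Figure D2:**
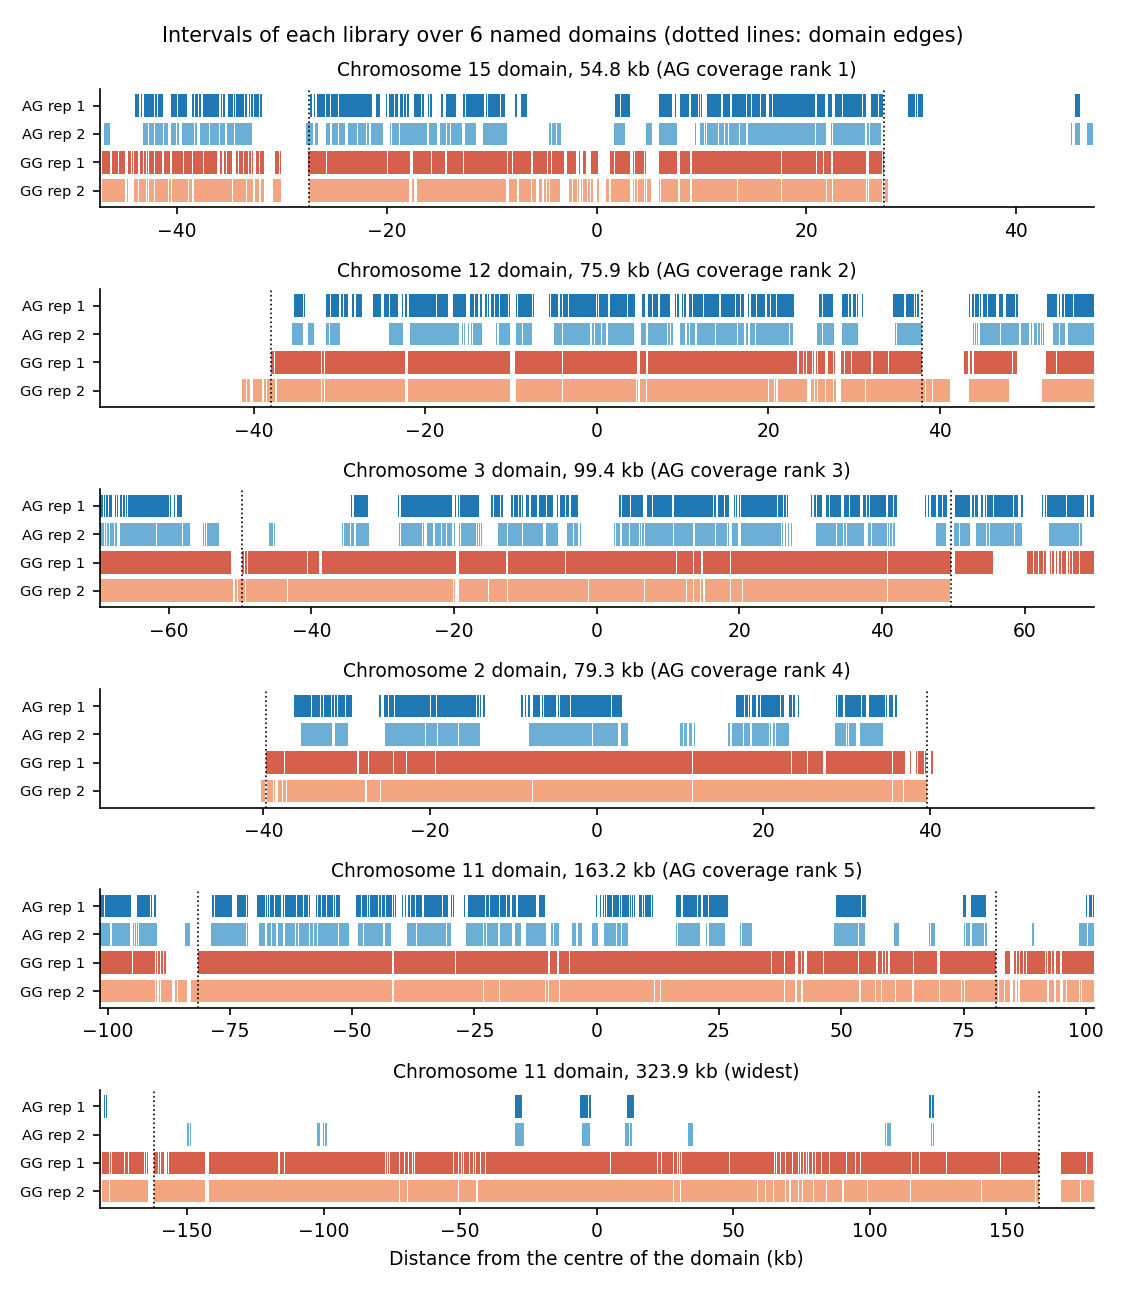
Intervals of the 4 libraries over the 5 members with the highest AG coverage and over the widest member, plotted as distance from the centre of the domain in kb with 20 kb on each side; dotted lines mark the edges and each row of bars is a library. AG patches recur in part at the same distances in both AG rows, over GG rows that fill most of each domain. The longest patches of the replicates overlap only in the domains on chromosomes 12 and 3. The widest domain has 4 patches in AG replicate 1 and 8 in AG replicate 2.

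Of the 5 widest members, those on chromosomes 11 and 10 had mean AG coverage of 3.24% to 3.87%, below the median of 5.68% over all members, while those on chromosomes 8 and 1 lay above it. The widest, on chromosome 11 from 51161313 to 51485218, held 9118 AG bases in 4 patches in replicate 1 and 15958 in 8 patches in replicate 2, with no patch over 3879 bp. The bases under both AG libraries numbered 6363. The member on chromosome 11 from 4936887 to 5223642 (286.8 kb) held 12254 bases in 3 patches and 9037 in 4, of which 6447 bases were common to both. In these 2 domains the bases under both AG libraries made up 0.340 and 0.434 of those under either. Some AG bases thus recurred between replicates, but the longest patches of the replicates did not overlap in either domain.

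The member on chromosome 8 from 42876662 to 43150573 (273.9 kb) held 18628 AG bases in 9 patches in replicate 1 and 18507 in 10 patches in replicate 2. Its longest patches were 4735 and 3609 bp, so the bases were spread over many short patches. Chromosome 10 from 78485449 to 78730234 (244.8 kb) held 7638 bases in 4 patches and 8245 in 5. Chromosome 1 from 9942450 to 10178736 (236.3 kb) differed between replicates, with 6654 bases in 3 patches against 26417 in 13. Across all members, width and mean AG percentage had a Spearman rho of -0.243 (n = 256 members in the same 4 libraries, a description). The rule's minimum is a fixed number of bases, so a narrow domain must hold a larger percentage to enter, but few members lay near that minimum. Whether this bears on the rho was not tested.

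Some members were read very differently by the AG replicates. The largest difference was on chromosome 8 from 142383065 to 142438874, with 2.67% covered in AG replicate 1 and 23.9% in AG replicate 2. Chromosome 4 from 32865815 to 32947548 had 1.53% and 18.6%. Chromosome 3 from 34145666 to 34204692 went the other way, with 24.8% and 8.98%. The GG libraries covered these 3 domains to between 90.3% and 98.3%, and differed by at most 2.25 percentage points in each. In all, AG replicate 2 was the higher in 150 of 256 members. Pearson's r between the AG libraries over members was 0.924 and Spearman's rho 0.738. Without the 26 members most covered in AG, Pearson's r between the AG libraries was 0.606. Between the GG libraries Pearson's r was 0.796.

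AG patches were then formed by joining AG intervals at most 1500 bp apart. A member held 1 to 11 patches in AG replicate 1 with a median of 1, and 1 to 14 in AG replicate 2 with a median of 2. There was a single patch in 132 members in replicate 1 and in 80 in replicate 2, and 3 or more in 48 and 102. The longest patch of a member had a median of 3893 bp in replicate 1 and 3289 bp in replicate 2, and reached 35202 and 27836 bp. Replicate 1 thus had fewer and longer patches than replicate 2 on similar numbers of bases.

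Patches that touched a member were longer than those elsewhere in the same library. Their median width was 3458 bp (495 patches) in AG replicate 1 and 2146 bp (693 patches) in AG replicate 2, against 2899 bp (4101 patches) and 1799 bp (7023 patches) outside the wide GG domains. Patches touching the wide domains outside the members had medians of 2581 bp (53 patches) and 1493 bp (144 patches). Patches of at least 10 kb were 9.70% and 5.63% of those touching members in the replicates and 4.34% and 2.51% outside wide domains, while the other wide domains had none. The longest patches of all, 53399 and 53297 bp, lay outside the wide domains. The rule requires AG bases in both libraries, so the patches in members are not independent of it. Only 1 domain with bases in both AG libraries missed the minimum. These are counts within 2 libraries, and the difference was not tested.

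The place of AG bases within a member was not used by the rule, and it recurred in part between replicates. AG replicate 1 covered 7.91% of the members and held 55.0% of the member bases of AG replicate 2; the share in the other direction was 60.4%. At least 1 base was under both AG libraries in 222 members, and in 34 the replicates touched different bases. The longest patches of both replicates overlapped in 161 of 256 members, and in 50 of the 69 members with a single patch in each library. Per member, the bases under both AG libraries were a median of 0.322 of those under either. When the patches of both replicates were joined, 370 of 765 (48.4%) contained both libraries, 107 only replicate 1 and 288 only replicate 2. Joined patches with both libraries had a median width of 4701 bp, those with 1 library 1860 bp.

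Recurrence can be compared with the rest of the genome without the AG part of the rule by taking all 555 wide GG domains. There 57.1% of the AG replicate 1 bases were under AG replicate 2 and 50.3% the other way round, against 53.5% and 41.1% on the autosomes outside them. These differences of 3.61 and 9.20 percentage points were not tested. Without the 26 members most covered in AG, the mean of both directions in members was 48.6% in place of 57.7%, so those domains raise the recurrence. That 48.6% is a mean of both directions, while the outside shares of 53.5% and 41.1% are single directions with nothing left out. They are therefore not like values. Recurrence in all wide domains without those 26 was not measured, so a higher recurrence in wide domains generally is not shown.

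Nearly all AG bases in members lay on GG-covered bases. Of the member bases of AG replicate 1, 98.7% were under GG replicate 1 and 98.8% under GG replicate 2, and for AG replicate 2 the shares were 98.7% and 98.8%. Away from the AG bases, GG replicate 1 covered 91.3% of the members and GG replicate 2 covered 94.1%. The GG percentage was higher under the AG bases than elsewhere in the same member in 241 to 246 of 256 members over the 4 pairs of an AG and a GG library, or 94.1% to 96.1%. In the other wide domains with bases of an AG library the shares were like these, at 95.3% and 93.0% with AG replicate 1 (43 domains) and 98.0% and 94.1% with AG replicate 2 (101 domains), in GG replicates 1 and 2. AG bases seldom lay in the remaining GG gaps, in members as in the other wide domains.

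GG intervals were also longer where AG bases lay. An interval is an unbroken stretch as listed in the file; how tags were joined into it is not stated, so its length is given as a property of the list and not as a tag density. The length was averaged over bases. In members, the GG interval over a base averaged 10350 bp under the bases of AG replicate 1 and 5782 bp elsewhere in GG replicate 1. In GG replicate 2 it averaged 11006 bp and 6806 bp. With AG replicate 2 the values were 10266 and 5749 bp in GG replicate 1 and 11041 and 6765 bp in GG replicate 2. The ratio ran from 1.62 to 1.79 over the 4 pairs, and from 1.47 to 1.64 without the 26 members most covered in AG.

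This lengthening was seen in most members and outside them too. The GG intervals were longer under AG bases in 188 to 221 of 256 members, or 73.4% to 86.3%. In the other wide domains with bases of an AG library, the same held for 76.7% and 72.1% with AG replicate 1 (43 domains) and for 76.2% and 69.3% with AG replicate 2 (101 domains), in GG replicates 1 and 2. The ratio was 1.40 to 1.58 there and 2.24 to 2.62 on the autosomes outside wide domains. Longer GG intervals at AG bases are thus not particular to the members. Outside wide domains, 46.3% to 53.1% of AG bases were on GG-covered bases, while GG covered 5.55% to 6.20% of the other bases.

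**Figure D3:**
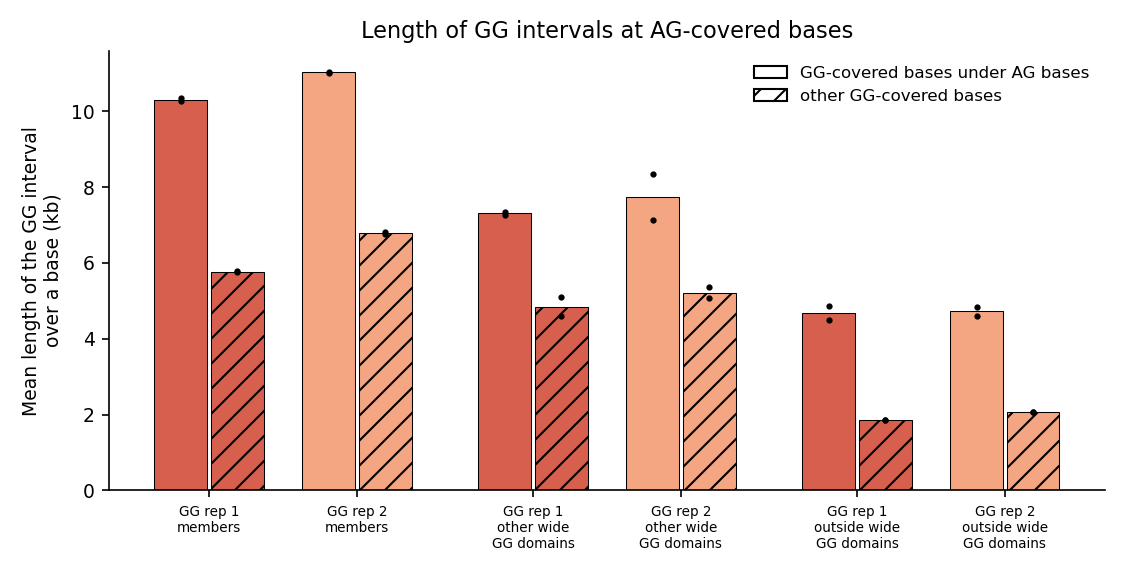
Mean length of the GG interval over a GG-covered base, in kb, for bases under AG bases (plain bars) and other GG-covered bases (hatched bars), in members, other wide GG domains and the autosomes outside them. A bar is the mean over both AG libraries and dots are the values with each; plain bars are the higher in every pair, at 10.3 and 11.0 kb in members.

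The members had longer GG intervals than the other wide domains. All wide domains were chosen by the same minimum GG width, and the members were also selected on AG coverage. Median width fell from 73.8 kb in members to 69.0 kb in domains with some AG and 60.6 kb in those with none. Whether width or the choice by AG coverage bears on the interval lengths was not tested. Averaged over bases, the interval was 6170 bp in GG replicate 1 and 7153 bp in GG replicate 2 in members. In the domains with some AG bases that were not members it was 4985 and 5294 bp, and in the domains with no AG base 3714 and 4022 bp. Both GG libraries gave the same order of the 3 classes. Median GG coverage had the same order, at 91.8% and 94.5% in members, 91.0% and 94.1% in the domains with some AG, and 89.8% and 92.9% in those with none. The classes overlapped widely in coverage, since single domains ran from 77.8% to 97.6% in GG replicate 1 in the class with no AG base.

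Wider domains were more often members. The rule's minimum is a fixed number of bases at any width, but only 1 domain with bases in both AG libraries missed it. Whether the minimum bears on these shares was not tested. The share was 39.5% of 195 domains of 50 to 60 kb, 42.2% of 173 of 60 to 80 kb, 45.1% of 91 of 80 to 100 kb and 67.7% of 96 of at least 100 kb. The median AG coverage of members in the replicates was 6.61% and 7.35%, 4.99% and 5.55%, 5.38% and 7.24%, and 4.12% and 4.36% in these classes from narrow to wide, lowest in the widest but with no steady fall. Median width was 73.8 kb in members, 69.0 kb in domains with some AG and 60.6 kb in domains with none.

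Along a member, AG coverage was spread over its length. With each member cut into 10 equal segments from the lower coordinate, AG replicate 1 covered between 7.13% and 9.60% in the inner segments, 6.59% in the lowest and 5.24% in the highest. AG replicate 2 covered between 7.16% and 10.6% in the inner segments, 8.86% in the lowest and 5.12% in the highest. The highest segment was the least covered in both replicates. The longest patch had its centre in the lower, middle and upper part of the member, cut into 3 equal lengths, in 82, 86 and 88 members in replicate 1 and in 86, 91 and 79 in replicate 2. AG coverage of the middle part over that of the outer parts was 1.08 ± 0.00177 (SD, n = 2), and it fell to 0.944 without the 26 members most covered in AG and to 0.988 with GG intervals joined up to 3000 bp. No preference for the middle or the edges held over these choices.

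**Figure D4:**
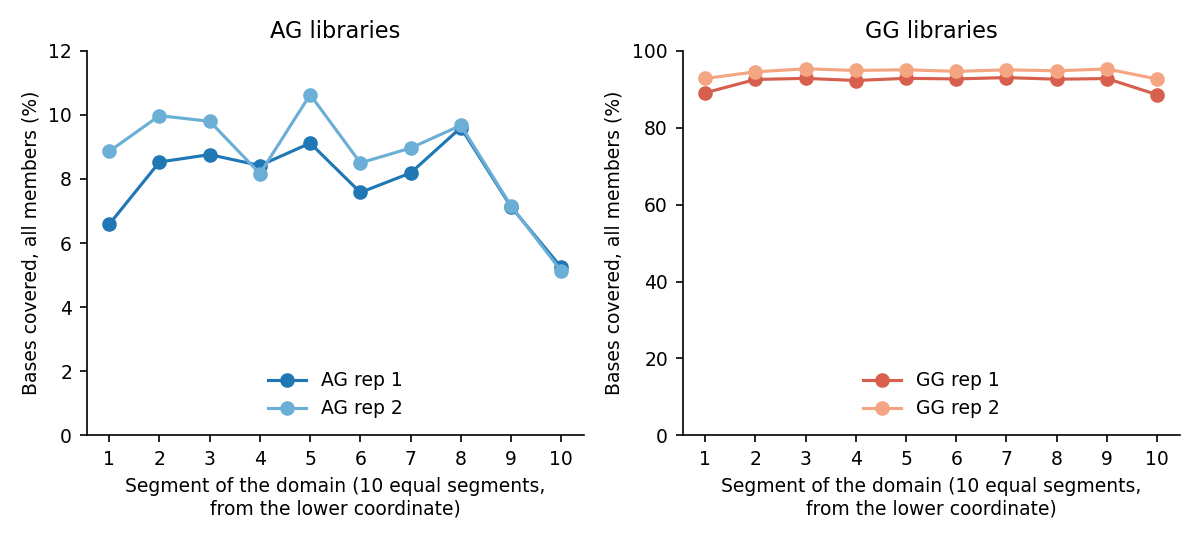
Bases covered over all 256 members, as a percentage of each of 10 equal segments of the domain from its lower to its higher coordinate, in the AG libraries (left, axis to 12%) and the GG libraries (right, axis to 100%); lines join the values of a library. AG values lie between 5.12% and 10.6%, and GG values dip slightly in the outermost segments.

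AG coverage was lower in the flanks of the members than inside, where the rule requires it, and did not end at the edges. In the 50 kb on each side, AG replicate 1 covered 2.65% and AG replicate 2 covered 3.16%, which was 0.335 and 0.364 times the coverage inside. GG covered 46.2% and 52.2% of the same flanks, or 0.503 and 0.552 times the inside; the inside is high by the choice of members in both groups. Flanks of domains with no AG base had 0.733% and 1.05% AG coverage, and those of domains with some AG had 1.69% and 1.66%. In the domains with some AG the inside had 0.918% and 1.67%, so the flanks had 1.84 and 0.992 times the inside. All but 1 of these domains held bases of a single AG library, so their inside is low by the rule. Part of these flanks lies in neighbouring wide domains, which for members can be members themselves. With every wide domain left out of the flanks, which kept 85.5% of the member flanks, AG covered 2.44% and 2.98% next to members, 1.29% and 1.25% next to domains with some AG, and 0.518% and 0.799% next to domains with none. A patch that crosses an edge still counts on both sides of it, so these flanks are not independent of the rule. GG coverage of flanks was the lowest next to members, with 50.2% and 57.1% next to domains with no AG base and 54.1% and 60.7% next to those with some. Of the AG bases in member flanks, 67.6% and 68.2% were on bases covered by both GG libraries. The differences between flanks were not tested.

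Wide GG domains as a whole lay toward chromosome ends, with 176 of 555 (31.7%) within 5 Mb of an autosome end, and the members were near that share. Within 5 Mb of an autosome end lay 93 members (36.3%), against 48 of 143 domains with some AG (33.6%) and 35 of 156 with none (22.4%); these outer segments are 7.48% of the autosomal length. Within 2 Mb lay 47 members (18.4%), 16 domains with some AG (11.2%) and 5 with none (3.21%). Of all 555 wide domains, 68 (12.3%) lay there, so the members were above that share. Within 10 Mb the order changed, with 46.5% of members, 53.1% of domains with some AG and 37.2% of those with none. The share of all wide domains within 10 Mb was 45.6%. By width class, the share of members within 5 Mb was 39.0% against 27.1% of the other domains at 50 to 60 kb, 30.1% against 31.0% at 60 to 80 kb, 46.3% against 26.0% at 80 to 100 kb and 33.8% against 22.6% from 100 kb. Distance to the end and AG percentage among members had a Spearman rho of 0.00448 (n = 256, a description).

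The members were found on 19 of the 20 autosomes. Chromosome 17 held no wide GG domain and so no member. Chromosomes 4 and 1 held the most, with 25 of 39 and 24 of 50 wide domains. Chromosome 9 had the most wide domains, 73, of which 20 were members (27.4%), the lowest share of the autosomes with wide domains. The share was highest on chromosomes 20 (8 of 12, 66.7%) and 4 (64.1%). Per length, chromosome 10 was the richest with 21.5 members per 100 Mb (20 members) and chromosome 5 the poorest of the 19 with 2.63 (5 members).

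**Figure D5:**
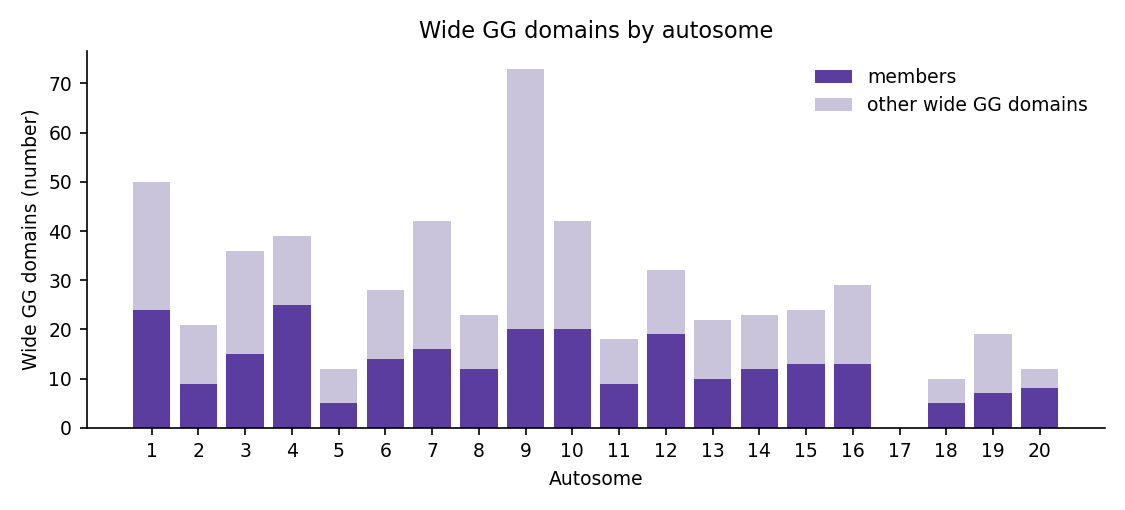
Number of wide GG domains on each autosome, with members in dark and other wide domains in light colour. Chromosome 9 has 73 wide domains with 20 members, chromosome 4 has 39 with 25, and chromosome 17 has none.

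Members came in groups on several chromosomes. Within 1 Mb of another member lay 135 members (52.7%), in 46 runs. The other wide domains were as close to members, with 169 of 299 (56.5%) within 1 Mb of one. The longest run held 11 members and 2 other wide domains on chromosome 4 from 168918821 to 172499509, with AG coverage of 1.43% to 18.0% in replicate 1 and 1.74% to 13.4% in replicate 2. A run of 8 members and 2 other domains lay on chromosome 6 from 1683266 to 3515200. The run of 6 on chromosome 15 from 3072565 to 5260179 contained both the member most covered in AG and the member with the fewest bases in its lower AG library. Neighbouring members therefore differed in AG coverage from 0.948% to 62.3% in AG replicate 2 within 2.19 Mb.

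The rule was limited to autosomes, and the same steps were also applied to X, a chromosome it did not use. X held 35 wide GG domains by the same widths, and 1 of them (2.86%) met the AG minimum in both replicates. It lay on X from 146937208 to 147053300 (116.1 kb), with 2849 and 998 AG bases and with 95.2% and 96.9% covered in GG. The other X domains had no AG base in either library. AG coverage of X as a whole and the share of all X windows meeting the minimum are not given. How much X the AG embryos carried is not known here, so the X share cannot be compared with the 46.1% of autosomal domains.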

How the data were processed

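The authors deposited, for each library, a list of genomic positions (chromosome, start, end) on rheMac8 with no other measure. SICER 1.1 called islands per library, with an E value of 0.001 per the file names; Trim Galore, Bowtie2, SAMtools and deepTools 3.3.1 are also named in the submitters' processing notes. How tags became intervals is not stated. No pair of libraries had more than 68 intervals in common.

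The minimum of 450 bases is 3 times the most common interval length of 150 bp. Groups and replicate numbers came from the sample titles. The members and lists were chosen with earlier results of these data known. Domains were named by rule: the 5 highest in mean AG percentage, the 5 widest, the 3 nearest to the AG minimum on each side and the 3 with the largest AG replicate difference, ties by position; the domain on X and the runs were named after their values were seen. The interval arithmetic was tested on simulated data. Gene lists had been planned, but without an annotation of this build they were not run. Analyses used Python 3.11.15 with numpy 2.4.6 and scipy 1.17.1, and figures matplotlib 3.10.9.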

Additional observations from a re-analysis of the deposited data

How the results depend on the processing

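The number of members changed more with the widths tried than with the AG minimum tried, 1000 bases, which left 242 members. These steps are not on a common scale. The need for both AG libraries also mattered, with 356 members without AG replicate 1 and 298 without AG replicate 2. With a minimum width of 30 kb there were 1400 wide domains and 471 members (33.6%), median AG coverage was 6.92%, members held 19.8% of autosomal AG bases, the ratio of the middle to the outer parts was 1.20 and that of flanks to inside 0.294, with 98.5% of member AG bases on GG-covered bases. With GG intervals joined up to 3000 bp, median AG and GG coverage were 4.68% and 90.6%, members held 17.6% of AG bases, the middle ratio was 0.988 and 98.4% of AG bases were on GG. Under a common clustering rule for all libraries (intervals within 200 bp of each other joined, and only the resulting clusters from 1000 bp upwards kept) there were 165 members (40.9%) with 9.88% of AG bases, a middle ratio of 1.12, a flank ratio of 0.307 and 99.2% of AG bases on GG. An AG minimum of 1000 bases moved the middle ratio alone beyond the spread between replicates, to 1.07. Without the 26 members most covered in AG, a choice made after seeing the data, median AG coverage was 5.11%, members held 7.88% of AG bases, 48.6% of these were shared between replicates, the middle ratio was 0.944, the flank ratio 0.413, 98.9% of AG bases were on GG, and the GG interval ratio was 1.56. Within 2 and 10 Mb of an end lay 18.4% and 46.5% of members, and flanks of 20 and 100 kb gave ratios of 0.290 and 0.314; with wide domains left out of the 50 kb flanks, added after seeing the data, it was 0.326.

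Leaving out each library in turn gave 42.5% to 64.1% of wide domains as members, median AG coverage of 4.25% to 5.47%, median GG coverage of 90.4% to 93.1%, 12.6% to 17.8% of AG bases in members, middle ratios of 1.09 to 1.19, flank ratios of 0.331 to 0.391, 98.2% to 98.7% of AG bases on GG and GG interval ratios of 1.73 to 1.85. Sharing between AG replicates has no value without an AG library. The GG interval ratio stayed above 1 and the flank ratio below 1 under each of these choices. Each choice again took members by their AG bases inside, which favours a flank ratio below 1. The middle ratio did not keep to one side of 1. The causes of these shifts were not tested. No paired analysis was possible because the results come from no test: the rule chose the members on the AG and GG coverage that a paired fit would compare. Depth is unknown in every library, so no interval for counting error can be given.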
